A study of Mus musculus with 10 samples.

Results

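The mitochondrial genome transcripts described here are every gene that the deposited count table places on the mitochondrial chromosome, 37 of 54532 genes: 13 protein genes, 2 rRNA genes and 22 tRNA genes. They were chosen by chromosome alone, with no measured value, though with earlier results of these data known. The RNA came from whole hearts of C57BL/6 mice aged 8 weeks, 5 injected with saline and 5 with lipopolysaccharide (LPS) and labelled 24 h. LPS is a cell wall component of Gram-negative bacteria that is sensed through the receptor TLR4, and its injection is a model of the heart in sepsis. The labels name no genotype beyond the strain and give no LPS dose, sex, litter or batch. Each label numbers its own mouse, so the p-values below measure the spread between these 10 hearts. A heart sample holds many cell types, and fewer cells of a type cannot be told apart from less RNA per cell.

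The mitochondrial genome is a small circle whose 2 strands, called heavy and light, are both transcribed as long RNAs that run through many genes. The tRNA genes sit between most of the protein and rRNA genes, and cutting the tRNAs out at both ends, by RNase P and ELAC2, releases the messenger and ribosomal RNAs. The messenger RNAs encode core subunits of respiratory complexes I, III, IV and V, the rRNAs and tRNAs serve their translation inside the organelle, and heart muscle is rich in mitochondria. By annotation 28 genes lie on the plus strand and 9 on the minus strand, namely mt-Nd6 and 8 tRNA genes. The library kit named in the labels is known to enrich polyadenylated RNA and not to mark strand. Reads of a gene and of RNA copied from the opposite strand at the same place therefore cannot be told apart here, nor can reads of a finished tRNA and of a longer precursor that spans it.

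Total counts ran from 14607969 to 17012372 per library, of which 3419065 to 4597543 fell on mitochondrial genes. The TMM scaling factors, which place the bulk of genes at no change, were 1.00 to 1.145 in saline and 0.829 to 0.958 in LPS libraries and did not overlap. Levels in CPM below (counts scaled to a common library size) use these factors, and total count scaling is given where it alters a statement. Cardiomyocyte markers were all detected, with a summed level of 59664 to 70350.4 CPM in the saline group and 65284 to 70547 in the LPS group, and 1 of 12 rose. All 8 endothelial markers fell, from a summed 969 to 1604 CPM in the saline group and 551 to 701 in the LPS group. Of the 12 leukocyte markers 9 could be tested, 3 of them rose and 2 fell, with a summed level of 349 to 513 CPM in the saline group and 339 to 489 in the LPS group, and none was at 0 reads. Of the remaining markers, 2 of 8 for fibroblasts and 2 of 6 tested for mural cells fell, and none of 5 for red cells was called by edgeR, at an unadjusted p under 0.05, or by DESeq2 or limma voom. Among all 13864 tested genes 18.9% rose and 21.0% fell. With total count scaling 0 cardiomyocyte markers rose and 5 fell, and 3 leukocyte, 5 fibroblast and 5 mural markers fell. Among all tested genes 12.3% then rose and 41.6% fell. The part of these markers in the results below was not tested.

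The share of the library on mitochondrial genes was 24.6, 26.4, 25.3, 28.4 and 27.1% in saline replicates 1 to 5 and 22.3, 28.6, 24.3, 31.2 and 27.6% in LPS replicates 1 to 5. The groups overlapped: LPS replicates 1 and 3 were below every saline heart and LPS replicates 2 and 4 above every saline heart. Of the mitochondrial reads, protein genes made up 95.8 ± 0.616% in the saline group and 96.8 ± 0.399% in the LPS group (SD, n = 5). Relative to the TMM-scaled library, the mitochondrial total was 240395 ± 24678 CPM in the saline group and 296806 ± 56353 CPM in the LPS group, a ratio of 1.23, and the groups overlapped.

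The 2 rRNA genes took 0.753, 1.13, 0.850, 1.05 and 1.23% in saline replicates 1 to 5 and 0.726, 0.695, 0.647, 0.812 and 0.829% in LPS replicates 1 to 5 of all counts. Saline replicate 1 alone lay within the LPS range, and the 4 other saline hearts were above every LPS heart. Scaled by TMM, the rRNA sum ran from 6583 to 12225 CPM in the saline group and from 6746 to 9790 CPM in the LPS group. Only saline replicates 2 and 5 were then above every LPS heart. Within the mitochondrial reads the rRNA share was 3.78 ± 0.612% in the saline group and 2.79 ± 0.331% in the LPS group. Of all counts, the 22 tRNA genes together took 0.102 ± 0.00859% in the saline group and 0.104 ± 0.00841% in the LPS group. Their summed level was 796, 847, 887, 1018 and 1099.5 CPM in saline replicates 1 to 5 and 1223, 1116, 1101, 1130.0 and 1123 CPM in LPS replicates 1 to 5. On this TMM scale every LPS heart was above every saline heart, with saline replicate 5 and LPS replicate 3 nearly level, while the shares of all counts overlapped.

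**Figure D1:**
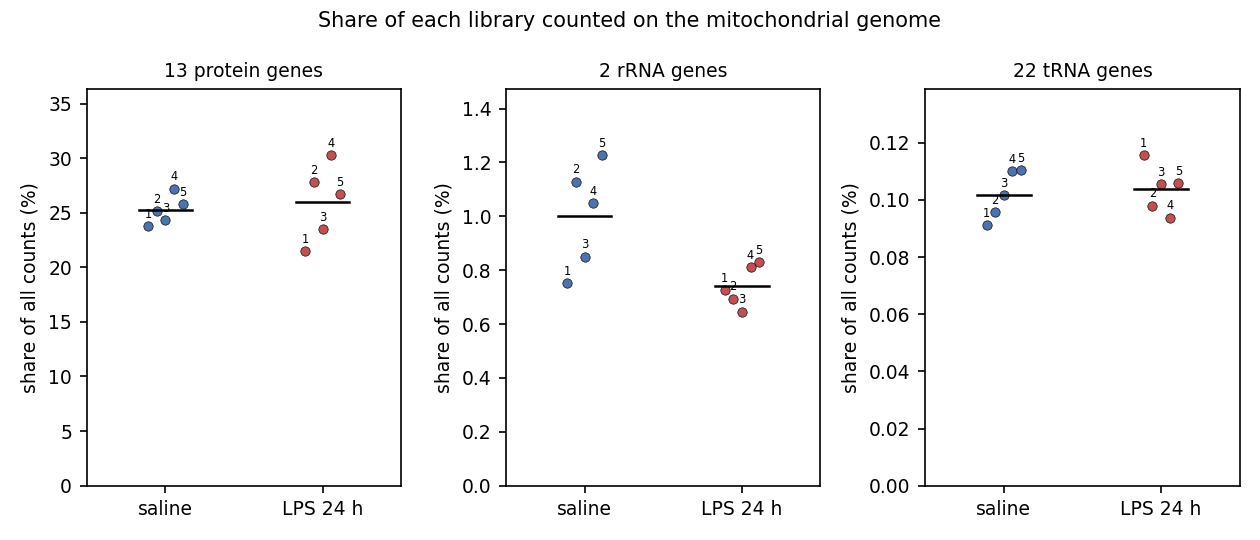
Share of all counts (percent, vertical axis from 0) on the 13 protein, 2 rRNA and 22 tRNA genes in each library; points carry the replicate number and lines are group means. The protein gene share spreads from 21.5% to 30.3% among LPS hearts and from 23.8% to 27.2% among saline hearts, and the mean rRNA share is 1.00% in saline and 0.742% in LPS hearts.

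Few genes carried most of the signal. mt-Co1, the catalytic core of cytochrome c oxidase (complex IV), held 44.8% of all mitochondrial reads, and with mt-Cytb, mt-Nd1, mt-Nd5, mt-Nd2 and mt-Nd4 it made up 92.5%. Per length, in the authors' FPKM, mt-Co1 stood first in saline hearts at 73555 ± 5998 (SD, n = 5). It was followed by mt-Cytb, the cytochrome b of complex III, at 32634 ± 4003 and by the complex I genes mt-Nd1 at 27516 ± 2637 and mt-Nd2 at 18317 ± 2743. The complex I genes mt-Nd4 (12349 ± 1835), mt-Nd6 (11551 ± 1278) and mt-Nd5 (11225 ± 1341) came next and differed from each other by less than their SDs. The rRNA genes mt-Rnr2 (4470 ± 1182) and mt-Rnr1 (2730 ± 551) were lower. Because the kit enriches polyadenylated RNA, these FPKM cannot rank the amounts of rRNA and messenger RNA in the heart. The remaining 6 protein genes were listed below all other protein and rRNA genes: mt-Co2 at 1213 ± 423, mt-Co3 at 1129 ± 703, mt-Nd4l at 1094 ± 1413, mt-Atp6 at 903 ± 364, mt-Nd3 at 355 ± 82.4 and mt-Atp8 at 131 ± 85.7 FPKM. Neighbours among mt-Co2, mt-Co3, mt-Nd4l and mt-Atp6 differed by less than their SDs.

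Those 6 low genes share a position. They lie together on the mitochondrial genome and are the 6 protein genes wholly inside a stretch of 4653 bases, chrMT:6390-11042, that has a near-identical copy in the nuclear genome at chr1:24611535-24616197 (minus strand, GRCm38), as the annotated transcripts of both places show. In saline hearts they were listed at 0.178% to 1.65% of the FPKM of mt-Co1, while the 7 protein genes outside the stretch (mt-Co1 and mt-Nd4 reach into it in part) stood at 15.3% to 100%. The first 60 bases of mt-Co3, a core subunit of cytochrome c oxidase, and of its annotated nuclear copy Gm28437 are shown because no base tells them apart.
mt-Co3, chrMT:8607-8666, plus strand: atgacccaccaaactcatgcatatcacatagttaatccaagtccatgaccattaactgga
Gm28437, chr1:24613912-24613971, minus strand: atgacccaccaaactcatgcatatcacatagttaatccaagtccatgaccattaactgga
For mt-Nd3, a complex I subunit, and its copy Gm28438 the only difference over 345 aligned bases is T3C, counted from the first base of mt-Nd3 and marked by a capital.
mt-Nd3, chrMT:9459-9518, plus strand: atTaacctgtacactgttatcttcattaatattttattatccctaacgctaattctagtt
Gm28438, chr1:24613060-24613119, minus strand: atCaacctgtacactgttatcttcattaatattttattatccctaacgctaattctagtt
A more diverged copy of mt-Co1 on chromosome 2, Gm13340, is 97.6% identical over the whole gene, and its differences within 60 bases are in capitals.
mt-Co1, chrMT:5787-5846, plus strand: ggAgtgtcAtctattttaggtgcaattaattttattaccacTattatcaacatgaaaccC
Gm13340, chr2:22589129-22589188, minus strand: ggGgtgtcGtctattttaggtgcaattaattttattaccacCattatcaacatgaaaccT
These sequences are from the GENCODE vM21 transcripts (GRCm38).

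The share of a gene's 50-base windows that also occur in a nuclear transcript was 100% for mt-Co2, 99.9% for mt-Co3, 99.5% for mt-Atp6, 98.8% for mt-Nd4l and 98.0% for mt-Nd3. It was 62.2% for mt-Nd4, 51.1% for mt-Co1, 8.2% for mt-Nd2, 7.6% for mt-Nd5 and 1.0% for mt-Rnr2. For mt-Nd1, mt-Nd6, mt-Cytb and mt-Rnr1 it was 0. It was 0 for mt-Atp8 as well, which lies inside the copied stretch and meets an annotated copy, Gm10925, only over the 43 bases that it shares with mt-Atp6; of its 36-base windows 4.7% were shared. The sources used here give neither the read length nor the rule for reads that fit more than 1 place, and the part of that rule in the low levels was not tested.

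**Figure D2:**
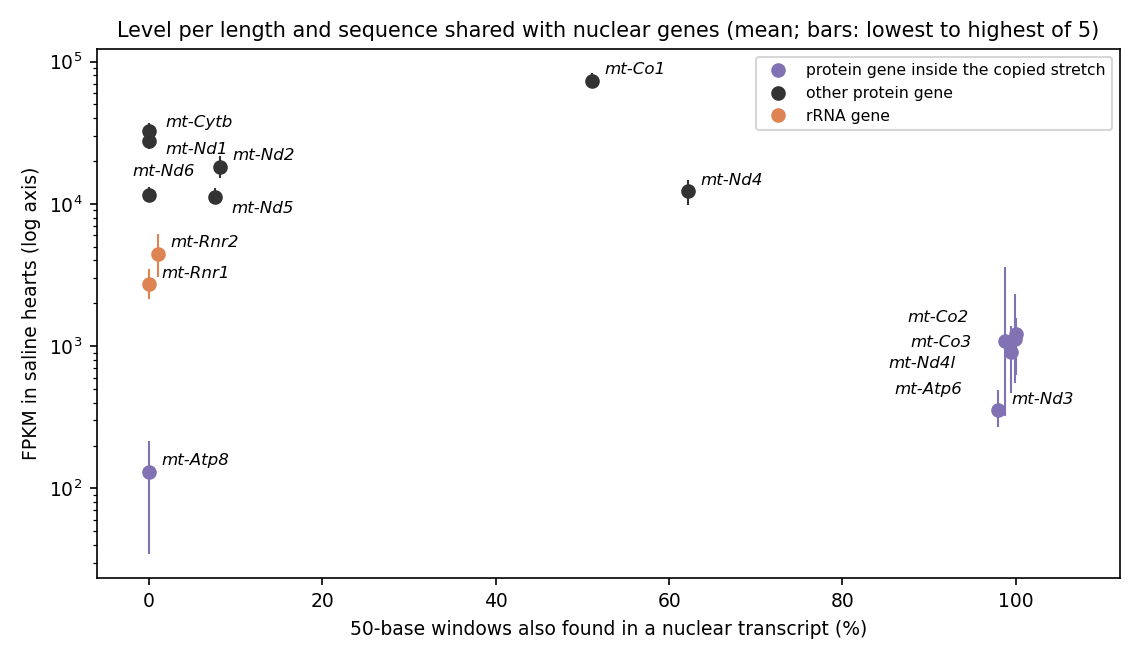
FPKM in saline hearts (log axis; points are means, bars run from the lowest to the highest of 5 libraries) against the percentage of each gene's 50-base windows found in a nuclear transcript. The 6 protein genes inside the copied stretch sit at 1213 FPKM or lower, and the 7 other protein genes at 11225 or higher.

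Several genes of the copied stretch were uneven between replicates. The highest saline library exceeded the lowest by 1.80 to 11.2 times for these 6 genes, and by 1.19 to 1.49 times for the 7 other protein genes. Among LPS hearts these ratios were 1.59 to 8.89 and 1.52 to 2.24 and overlapped, with mt-Nd3 the most even of the 6. mt-Nd4l was at 131, 93.2, 90.8, 1018 and 209.8 CPM in saline replicates 1 to 5 and at 149, 739, 195, 222 and 469.7 CPM in LPS replicates 1 to 5. Saline replicate 4 stood far above all other saline hearts for this complex I gene, and LPS replicates 2 and 5 were the high ones in their group. mt-Co3 was at 689.6, 1725, 408, 883 and 503 CPM in saline replicates 1 to 5 and at 478, 1666, 2177, 624 and 2451 CPM in LPS replicates 1 to 5. In mt-Co3 high and low libraries occurred in both groups, with saline replicate 2 and LPS replicates 2, 3 and 5 high.

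Reads were also assigned to the nuclear copies. Gm10925 received 44.2% of the reads of mt-Atp6 and itself, Gm28437 25.7% of those of mt-Co3 and itself, Gm28661 25.6% for mt-Co2, Gm10222 16.9% for mt-Nd4l and Gm28438 13.9% for mt-Nd3. The split varied by library, from 4.87% to 44.1% for mt-Nd4l and from 10.004% to 53.5% for mt-Co3. Gm28439 held 1.03% against mt-Nd4, Gm29216 0.357% and Gm13340 0.105% against mt-Co1, and Gm13339 0.116% against mt-Nd2. Gm28439, Gm29216 and Gm13339 cover only 63.6%, 31.3% and 49.1% of their gene, whose reads were counted over its whole length. Their splits are therefore not comparable with those of the near-complete copies above. A more diverged copy of mt-Co2, Gm13341, held 0.496%. Of the 10 tested copies, Gm10222, Gm10925 and Gm28439 rose and none fell by edgeR, DESeq2 or limma voom (none at an unadjusted p under 0.05), beside the 18.9% rising among all tested genes. Over their whole length Gm10222, Gm10925 and Gm28439 are 100% identical to mt-Nd4l, mt-Atp6 and mt-Nd4. Reads within them cannot be told by sequence from mitochondrial reads, so these rises cannot be assigned to the nuclear copies. Leaving out saline replicate 3 or either of LPS replicates 4 and 5 ended the call of Gm10925 (edgeR adjusted p up to 0.0693). Scaled by total count, Gm28439 alone rose, beside 12.3% of all tested genes, and Gm10222 and Gm10925 had edgeR adjusted p of 0.0770 and 0.164. DESeq2 called 5 rising. Gm28662 and Gm29215, chromosome Y genes listed with the copies, aligned to mitochondrial genes only over 22 and 42 bases, at 81.8% and 76.2% identity. Both had 0 reads in every library, which allows up to 3 counts of a library's total, 0.176 to 0.205 CPM.

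Compared with saline, 12 of the 31 tested mitochondrial genes rose and none fell in the LPS hearts (edgeR quasi-likelihood test, Benjamini-Hochberg adjusted p under 0.05). That is 38.7% rising, beside 18.9% rising and 21.0% falling, or 39.9% called, among all 13864 tested genes. The risers were 9 of 16 tested tRNA genes and 3 of 13 protein genes, mt-Co1, mt-Nd3 and mt-Nd5, and neither rRNA gene was called. The protein risers were 6 without LPS replicate 1 and 7 without LPS replicate 3. Without any one of saline replicates 1 to 4 or LPS replicates 2 and 4 mt-Nd3 alone was left, and without LPS replicate 5 mt-Co1 and mt-Nd3. At an unadjusted p under 0.05, 14 genes were higher and 1, mt-Rnr1, was lower. DESeq2 called 14 rising and none falling, and limma voom 10 and none. The median log2 fold change was 0.37 for the 31 genes, 0.32 for the protein genes and -0.02 for all tested genes, and 26 of the 31 lay above 0.

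How many genes count as risen depended on the scaling. With total counts as library sizes 4 mitochondrial genes rose, mt-Ty, mt-Tg, mt-Tl2 and mt-Te, and 3 fell, mt-Rnr1, mt-Rnr2 and mt-Tm, beside 12.3% rising and 41.6% falling among all tested genes. The median over all genes then shifted to -0.30, and that over the mitochondrial genes to 0.09. With TMM the mitochondrial median lay 0.39 above that of all genes, and 0.34 to 0.49 above it when 1 library was left out. The 4 tRNA genes named here kept their call in all 20 alternative fits, 10 of scaling, filter, test or copy handling and 10 that left out 1 library each. In mt-Tc, mt-Ty, mt-Tg and mt-Te every LPS heart lay above every saline heart, 12.9% of the tested mitochondrial genes beside 14.3% of all tested genes.

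**Figure D3:**
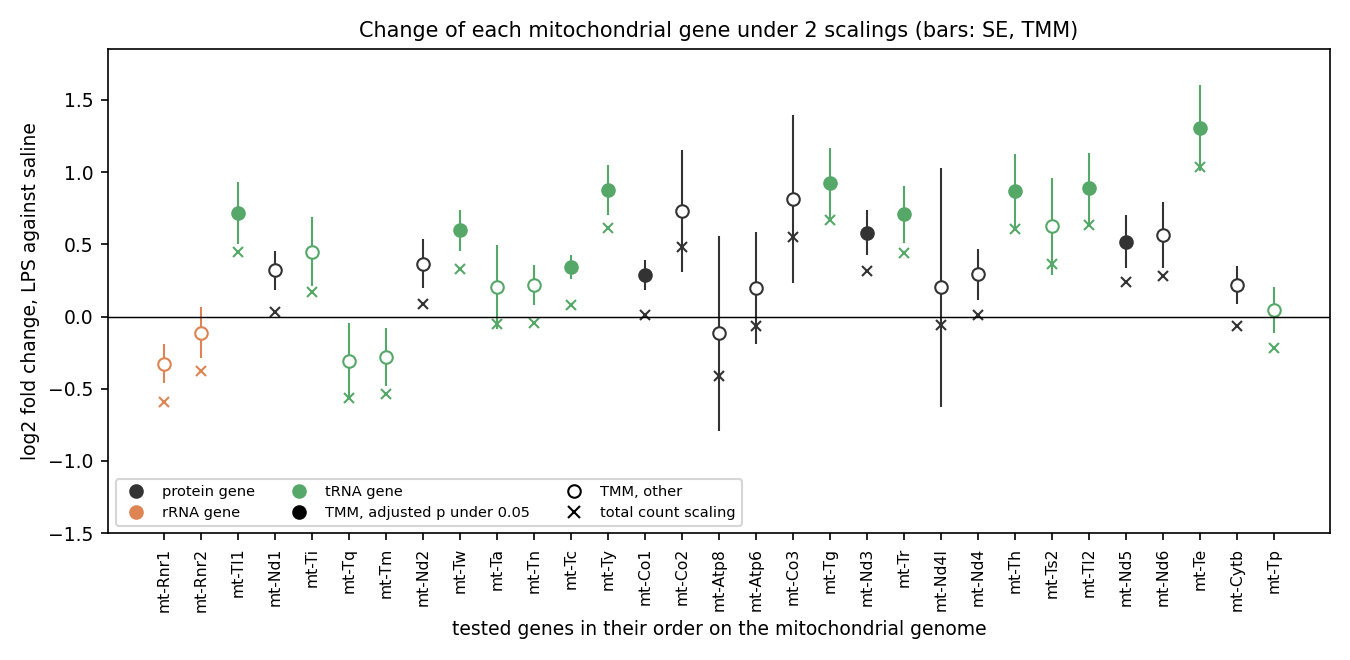
Log2 fold change of LPS against saline (vertical axis) for the 31 tested genes in genome order, with TMM scaling (circles, bars are SE; filled where the adjusted p is under 0.05) and total count scaling (crosses). Every cross lies below its circle; the tRNA gene mt-Te is highest, and mt-Rnr1 and mt-Rnr2 lie below 0 under both scalings.

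Of the 7 complex I genes mt-Nd5 and mt-Nd3 rose and 5 did not pass the test. mt-Nd5 encodes a proton-pumping membrane subunit of complex I. mt-Nd5 was at 17942, 18210.4, 17238, 21565 and 22208 CPM in saline replicates 1 to 5 and at 20587, 31217, 18059, 35193 and 34198 CPM in LPS replicates 1 to 5. LPS replicates 2, 4 and 5 were above every saline heart, while LPS replicates 1 and 3 lay within the saline range. For mt-Nd5 the log2 fold change was 0.52 ± 0.18 (SE; edgeR adjusted p = 0.0429). The call was lost without any one of saline replicates 1 to 4 or LPS replicates 2, 4 and 5, with adjusted p up to 0.110. mt-Nd6 was at 5047, 5874, 5056, 6508 and 5971 CPM in saline replicates 1 to 5 and at 5661, 9389, 4957, 11081 and 11014 CPM in LPS replicates 1 to 5. mt-Nd6 is the sole protein gene on the light strand, and the same 3 LPS hearts were high. For mt-Nd6 the log2 fold change was 0.57 ± 0.23 (SE; edgeR adjusted p = 0.0727). DESeq2 called mt-Nd6 rising (adjusted p = 0.0167), as did edgeR without LPS replicate 1 (0.0263), without LPS replicate 3 (0.00736) or with the replicate number as a block (0.0219).

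The 2 genes meet tail to tail and share 14 bases at chrMT:13552-13565, in capitals in the plus-strand sequence shown here because reads over it cannot be assigned to a strand.
mt-Nd5/mt-Nd6 junction, chrMT:13527-13590, plus strand: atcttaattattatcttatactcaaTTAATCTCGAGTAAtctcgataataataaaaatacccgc
Within the mitochondrial reads, mt-Nd5 made up 8.08 ± 0.254% in the saline group and 9.29 ± 1.64% in the LPS group and mt-Nd6 2.37 ± 0.128% in the saline group and 2.79 ± 0.675% in the LPS group. In both, LPS replicate 5 had the largest share and LPS replicate 3 the smallest of all 10 hearts.

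mt-Nd3 rose from 117 ± 26.8 to 175 ± 28.2 CPM (SD, n = 5). mt-Nd3 was at 105, 117, 89.3, 113 and 161 CPM in saline replicates 1 to 5 and at 203, 177, 128, 187 and 182 CPM in LPS replicates 1 to 5. LPS replicate 3 was the one LPS heart below the highest saline heart. For mt-Nd3 the log2 fold change was 0.58 ± 0.15 (SE; edgeR adjusted p = 0.00867). With the reads of Gm28438 added, the log2 fold change was 0.52 ± 0.15 (SE) and the gene still passed the test. mt-Nd1 (24995 ± 2363 in saline and 31173 ± 7076 CPM in LPS), mt-Nd2 (18045 ± 2662 in saline and 23258 ± 6044 CPM in LPS) and mt-Nd4 (16154 ± 2409 in saline and 19776 ± 5310.4 CPM in LPS), which encode further membrane subunits of complex I, did not pass, with log2 fold changes of 0.32 ± 0.13, 0.37 ± 0.17 and 0.29 ± 0.18 (SE). mt-Nd4l had a log2 fold change of 0.20 ± 0.83 (SE), too wide for a direction.

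mt-Co1 rose among the complex IV genes. mt-Co1 was at 102063, 102508, 101682, 112328 and 120728 CPM in saline replicates 1 to 5 and at 107781, 142613, 127729, 163721 and 117147 CPM in LPS replicates 1 to 5. LPS replicate 4 was highest, and LPS replicates 1 and 5 were below the highest saline heart. For mt-Co1 the log2 fold change was 0.29 ± 0.11 (SE; edgeR adjusted p = 0.0405). Leaving out any one of saline replicates 1 to 4 or LPS replicates 2 and 4 ended the call, with adjusted p up to 0.0968. mt-Co2 (788 ± 274 in saline and 1307 ± 648 CPM in LPS) and mt-Co3 (842 ± 527 in saline and 1479 ± 894 CPM in LPS) had log2 fold changes of 0.73 ± 0.42 and 0.81 ± 0.58 (SE) and were not called, also when the reads of their copies were added (0.64 ± 0.30 and 0.62 ± 0.43).

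mt-Cytb, of complex III, was not called. mt-Cytb was at 30996, 33930.4, 32265, 40118 and 39866 CPM in saline replicates 1 to 5 and at 33994, 45414, 33289.5, 53242 and 40052 CPM in LPS replicates 1 to 5. LPS replicates 2 and 4 were above the saline range and the other LPS hearts inside it. For mt-Cytb the log2 fold change was 0.22 ± 0.13 (SE; edgeR adjusted p = 0.204). The complex V genes mt-Atp6 (584 ± 234 in saline and 670.0 ± 292 CPM in LPS) and mt-Atp8 (25.3 ± 16.5 in saline and 23.4 ± 15.2 CPM in LPS), which encode membrane subunits of the ATP synthase and overlap by 43 bases, had log2 fold changes of 0.20 ± 0.39 and -0.12 ± 0.68 (SE).

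One arrangement of the hearts recurred in the 7 protein genes outside the copied stretch. LPS replicate 4 was the highest of all 10 hearts in 7 of 7, and LPS replicate 2 exceeded the highest saline heart in 7, LPS replicate 5 in 5, LPS replicate 3 in 1 and LPS replicate 1 in 0. The tRNA genes did not follow this order: LPS replicate 1 exceeded the highest saline heart in 12 of the 16 tested tRNA genes, replicate 2 in 12, replicate 3 in 6, replicate 4 in 11 and replicate 5 in 13. The 7 protein genes held most of the mitochondrial reads and are not separate observations. LPS replicates 4 and 2 also had the largest mitochondrial shares, 31.2% and 28.6%, and the lowest TMM factors, 0.829 and 0.878.

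**Figure D4:**
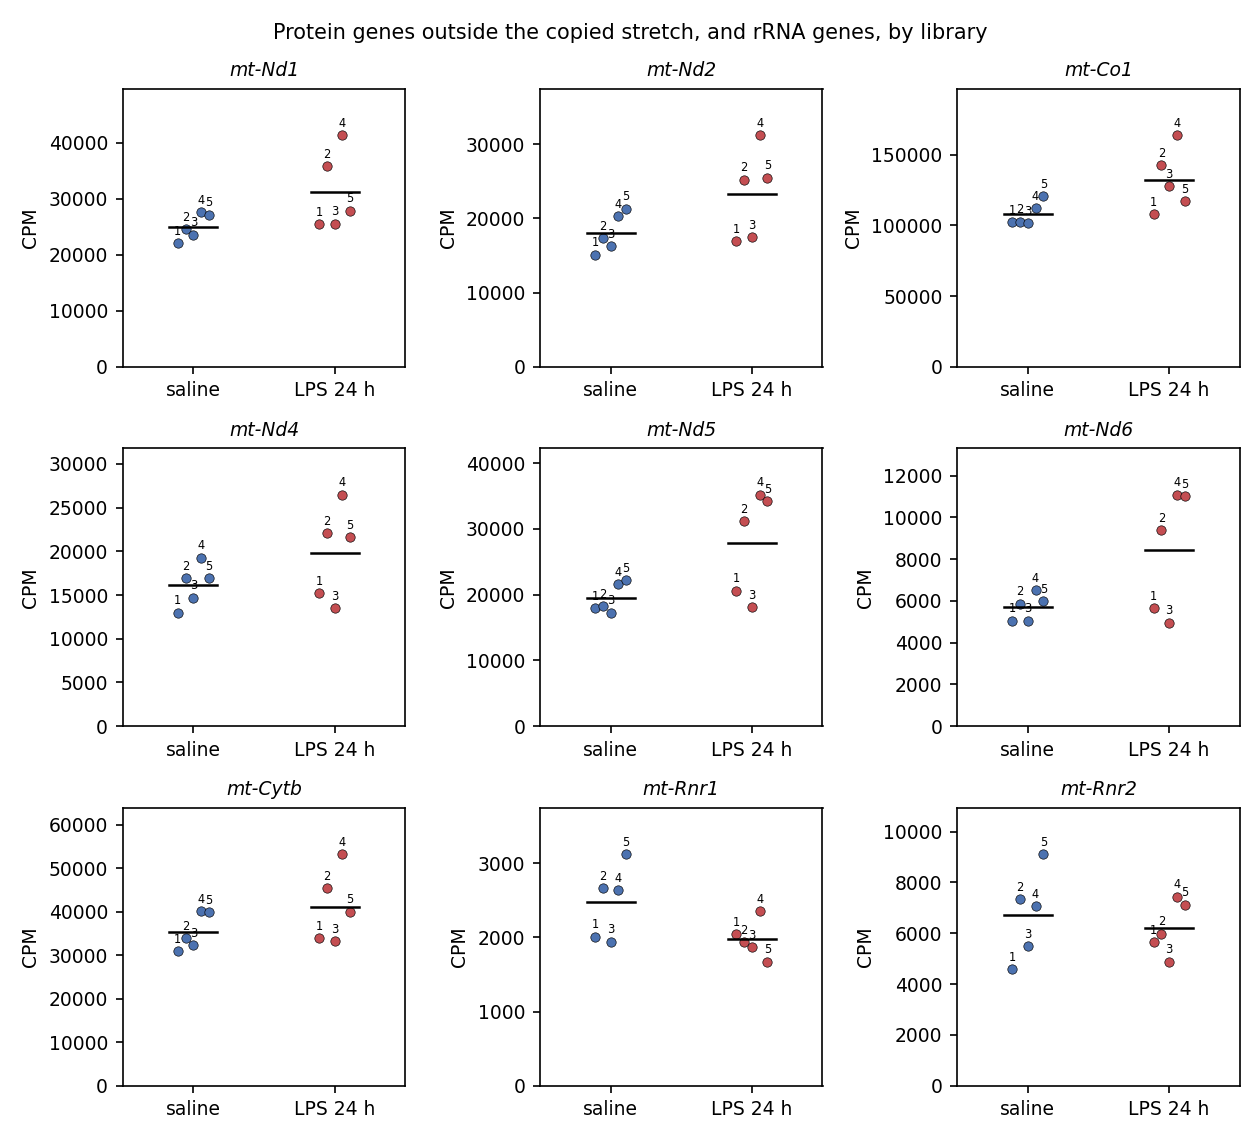
CPM (vertical axes from 0) for the 7 protein genes outside the copied stretch and both rRNA genes; points are libraries with their replicate number and lines are group means. LPS replicates 4 and 2 lie above all saline hearts in each protein gene, LPS replicates 1 and 3 mostly within their range, and in mt-Rnr1 the saline mean is the higher one.

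Both rRNA genes had log2 fold changes below 0, and neither passed the test; mt-Rnr2 turned to 0.025 without saline replicate 5. mt-Rnr1 encodes the 12S rRNA of the small subunit of the mitochondrial ribosome. mt-Rnr1 was at 2010.1, 2664, 1944, 2635 and 3121 CPM in saline replicates 1 to 5 and at 2044, 1932, 1869, 2354 and 1675 CPM in LPS replicates 1 to 5. The 3 highest hearts were saline replicates 5, 2 and 4, and the groups overlapped. For mt-Rnr1 the log2 fold change was -0.33 ± 0.13 (SE; edgeR adjusted p = 0.0653). With total count scaling it fell (log2 fold change -0.59, adjusted p = 0.000372), and with upper quartile scaling it fell as well (-0.48, adjusted p = 0.00484). mt-Rnr2 was at 4573, 7335, 5477, 7066 and 9104 CPM in saline replicates 1 to 5 and at 5634, 5981, 4877, 7436 and 7118 CPM in LPS replicates 1 to 5. This gene, for the 16S rRNA of the large subunit, was highest in saline replicate 5. For mt-Rnr2 the log2 fold change was -0.11 ± 0.18 (SE; edgeR adjusted p = 0.654).

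The clearest rises were at tRNA genes. The gene sequences of 4 are shown with the anticodon in capitals, as DNA letters, because these 4 kept their call in the 20 alternative fits named above. With the mitochondrial total as library size, mt-Ty and mt-Tg were not called.
mt-Te (tRNA for glutamate), chrMT:14071-14139, minus strand: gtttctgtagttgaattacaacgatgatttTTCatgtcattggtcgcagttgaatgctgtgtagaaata
mt-Tg (glycine), chrMT:9391-9458, plus strand: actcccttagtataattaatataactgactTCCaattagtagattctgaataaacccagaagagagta
mt-Tl2 (leucine), chrMT:11671-11741, plus strand: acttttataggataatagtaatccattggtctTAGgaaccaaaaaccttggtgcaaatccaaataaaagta
mt-Ty (tyrosine), chrMT:5260-5326, minus strand: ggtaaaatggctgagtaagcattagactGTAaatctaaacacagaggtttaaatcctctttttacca
None of their 36-base windows occurs in an annotated nuclear transcript, although mt-Tg lies inside the copied stretch.

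mt-Te lies between mt-Nd6 and mt-Cytb and is read from the light strand. mt-Te was at 17.2, 15.2, 15.1, 17.7 and 12.9 CPM in saline replicates 1 to 5 and at 67.2, 49.6, 23.9, 26.3 and 26.4 CPM in LPS replicates 1 to 5. All LPS hearts were above all saline hearts, LPS replicates 1 and 2 far above, and the saline hearts were close together. For mt-Te the log2 fold change was 1.31 ± 0.30 (SE; edgeR adjusted p = 0.00596). Its neighbour on the same strand, mt-Nd6, had a different order of hearts, with LPS replicate 1 within the saline range there and highest in mt-Te. mt-Ty was at 24.7, 18.1, 17.9, 15.03 and 20.4 CPM in saline replicates 1 to 5 and at 50.7, 34.4, 34.7, 26.6 and 30.2 CPM in LPS replicates 1 to 5. In mt-Ty, the light-strand gene just before mt-Co1, the groups did not overlap and LPS replicate 1 was again highest. For mt-Ty the log2 fold change was 0.88 ± 0.17 (SE; edgeR adjusted p = 0.00114).

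mt-Tg was at 2.19, 1.89, 1.12, 2.02 and 2.67 CPM in saline replicates 1 to 5 and at 4.21, 4.43, 2.88, 2.94 and 4.36 CPM in LPS replicates 1 to 5. Every LPS heart was above every saline heart in mt-Tg, on 20 to 61 reads per library. For mt-Tg the log2 fold change was 0.93 ± 0.24 (SE; edgeR adjusted p = 0.00741). mt-Tl2 was at 8.28, 8.52, 7.002, 12.3 and 14.2 CPM in saline replicates 1 to 5 and at 22.5, 19.7, 10.9, 15.8 and 24.4 CPM in LPS replicates 1 to 5. In mt-Tl2 LPS replicate 3 lay within the saline range and the other LPS hearts above it. For mt-Tl2 the log2 fold change was 0.89 ± 0.24 (SE; edgeR adjusted p = 0.0109).

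mt-Tc, the cysteine tRNA gene of the light-strand cluster between mt-Nd2 and mt-Co1, had among the most reads of all tRNA genes, 4174 to 6069 per library. mt-Tc was at 259.6, 272, 276, 302 and 317 CPM in saline replicates 1 to 5 and at 375, 339, 372, 341 and 379 CPM in LPS replicates 1 to 5. The groups were separate and each was tight, with the LPS hearts all above the saline ones. For mt-Tc the log2 fold change was 0.34 ± 0.08 (SE; edgeR adjusted p = 0.00515). Scaled by total count, mt-Tc had a log2 fold change of 0.08 and was not called. The other abundant tRNA genes, mt-Tp (286 ± 69.03 in saline and 295 ± 47.98 CPM in LPS) and mt-Tn (227 ± 25.9 in saline and 264 ± 54.7 CPM in LPS), for proline and asparagine, were not called, with log2 fold changes of 0.05 ± 0.16 and 0.22 ± 0.14 (SE).

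The remaining risers were mt-Tl1 (24.7 ± 3.81 in saline and 40.5 ± 13.5 CPM in LPS; the second leucine tRNA, next to mt-Rnr2), mt-Tw (24.02 ± 3.69 in saline and 36.3 ± 7.31 CPM in LPS; tryptophan), mt-Tr (3.28 ± 0.636 in saline and 5.36 ± 1.06 CPM in LPS; arginine) and mt-Th (4.83 ± 1.40 in saline and 8.83 ± 2.93 CPM in LPS; histidine). Their log2 fold changes were 0.72 ± 0.22, 0.60 ± 0.14, 0.71 ± 0.20 and 0.87 ± 0.26 (SE), with edgeR adjusted p of 0.0205, 0.00412, 0.0106 and 0.0158. In mt-Tl1, mt-Tw and mt-Th LPS replicate 3 alone stayed among the saline hearts, and in mt-Tr LPS replicate 4 did. Of the 7 tested tRNA genes on the light strand 3 rose and of the 9 on the heavy strand 6 did, with median log2 fold changes of 0.22 and 0.71. The light-strand genes held most of the tRNA reads, 90.7 ± 0.829% in the saline group and 88.2 ± 2.59% in the LPS group.

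mt-Tm and the 4 other tested tRNA genes, mt-Ti, mt-Tq, mt-Ta and mt-Ts2, did not pass in this fit, and their log2 fold changes ran from -0.31 to 0.62. Another 6 tRNA genes had too few reads to test, 43 in all 10 libraries together and at most 5 of a gene in a library. They were mt-Tv, mt-Ts1, mt-Tk and mt-Tt, and mt-Tf and mt-Td with 0 reads in every library, which allows up to 3 counts of a library's total. For them a difference was not detectable at this depth.

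**Figure D5:**
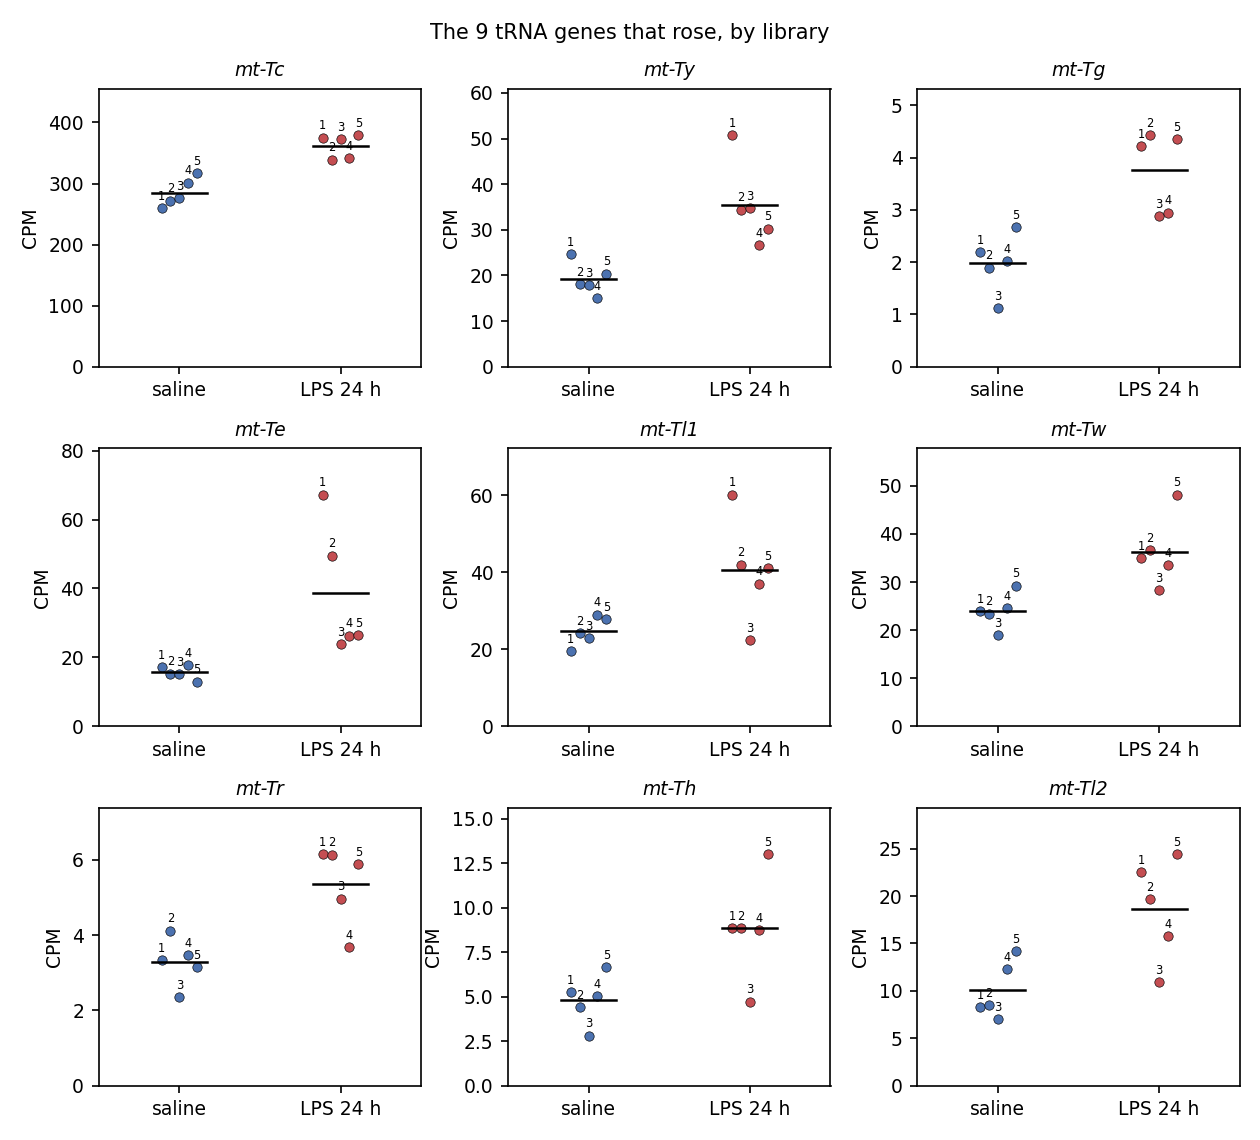
CPM (vertical axes from 0) of the 9 tRNA genes that rose; points are libraries with their replicate number and lines are group means. In mt-Tc, mt-Ty, mt-Tg and mt-Te the groups do not overlap; LPS replicate 1 is the highest heart in mt-Ty, mt-Te and mt-Tl1.

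A second fit took the mitochondrial total of each library as its size, which asks whether the makeup of the mitochondrial reads differed. Relative to that total 2 of 31 genes rose, mt-Te and mt-Tl2, and 3 fell, mt-Rnr1, mt-Rnr2 and mt-Tm, beside 10.4% rising and 29.2% falling, or 39.6% called, among all tested genes. None of the 13 protein genes was called by edgeR, at an unadjusted p under 0.05 or by DESeq2, and their median log2 fold change was 0.01. Protein genes made up 95.8% of that total in the saline group and 96.8% in the LPS group. This scaling therefore largely fixes their level as a group near no change. Without LPS replicate 3, mt-Nd5 and mt-Nd6 rose relative to that total (edgeR adjusted p = 0.0373 and 0.0424). mt-Rnr1 fell by 0.59 ± 0.15 (SE) on the log2 scale (edgeR adjusted p = 0.00325). Its share of mitochondrial reads was 0.934, 1.14, 0.881, 1.01 and 1.15% in saline replicates 1 to 5 and 0.865, 0.593, 0.738, 0.626 and 0.572% in LPS replicates 1 to 5. Every LPS heart was below every saline heart in this share, and the call held in all 14 alternative fits, 10 of them without 1 library.

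mt-Rnr2 fell by 0.39 ± 0.14 (adjusted p = 0.0345) and mt-Tm, the methionine tRNA gene, by 0.55 ± 0.21 (adjusted p = 0.0392), while mt-Tl2 rose by 0.65 ± 0.23 (adjusted p = 0.0319) and mt-Te by 1.07 ± 0.35 (adjusted p = 0.0338), all log2 with SE. Of the 10 fits without 1 library, 4 kept the call of mt-Rnr2, 2 that of mt-Tm, 5 that of mt-Tl2 and 4 that of mt-Te. The share of mt-Cytb in the mitochondrial reads was 14.7 ± 0.353% in the saline group and 13.9 ± 0.480% in the LPS group. Each LPS heart was below each saline heart in that share, by a very small margin, although its log2 fold change of -0.09 ± 0.10 (SE) did not pass.

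Few of the nuclear genes that serve the mitochondrial genome were called. Of 33 genes for processing, stability and turnover of mitochondrial RNA, 6 rose and 2 fell, beside 18.9% rising and 21.0% falling among all tested genes. Total count scaling turned this to 1 that rose and 6 that fell, and the median of their log2 fold changes from 0.15 to -0.13. With that scaling 12.3% of all tested genes rose and 41.6% fell. Pnpt1, an exoribonuclease of the organelle, rose from 32.9 ± 12.2 to 99.1 ± 17.1 CPM (log2 fold change 1.59 ± 0.22, adjusted p = 0.000190), with no overlap. Nsun4, which methylates mitochondrial rRNA, rose by 0.42 ± 0.10 and Elac2, the enzyme that cuts the 3' ends of tRNAs, by 0.39 ± 0.11, while Mrm1, an rRNA methyltransferase, fell by 0.86 ± 0.17 (SE). With total count scaling neither Nsun4 nor Elac2 was called (adjusted p = 0.205 and 0.406).

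Of 17 tested genes for transcription and copy number, none rose by edgeR (none at an unadjusted p under 0.05, none by DESeq2 or limma voom). Beside 18.9% rising and 21.0% falling among all tested genes, 2 of the 17 fell. These were Mterf1a, a transcription termination factor, from 1.59 ± 0.392 to 0.651 ± 0.286 CPM, and Primpol, a primase-polymerase, from 1.73 ± 0.280 to 0.941 ± 0.318 CPM. Few reads lay behind Mterf1a, which in LPS replicate 2 was at 0.155 CPM, under the 0.176 to 0.205 CPM of 3 counts. Primpol lost its call, with adjusted p up to 0.0568, when saline replicate 4 or either of LPS replicates 2 and 3 was left out. Of the 17, 9 fell with total count and 5 with upper quartile scaling, and the median moved from -0.11 to -0.38 with the former. With upper quartile scaling the median log2 fold change of all tested genes was -0.18, and the share of them that fell was not taken. Total count scaling gave 12.3% rising and 41.6% falling among all tested genes. Among 14 tested translation factors 1 rose, the ribosome recycling factor Mrrf (0.35 ± 0.10), and none fell. Mrrf was at 0.08 and not called with total count scaling (adjusted p = 0.422), where none rose and 4 fell. Of 77 tested mitochondrial ribosomal protein genes 2 rose, Mrpl52 (0.49 ± 0.14) and Mrpl3 (0.26 ± 0.08), the latter not without saline replicate 3 (adjusted p = 0.0565), and none fell. The counts of both lists stand beside 18.9% rising and 21.0% falling among all tested genes. Without LPS replicate 5, 11 of the ribosomal protein genes rose, and 1 fell without LPS replicate 1 or 4. The number of translation factors that rose was 3 when saline replicate 5 was left out, and 2 when replicate 1 of either group or the fifth LPS heart was. In neither list was a gene lower at an unadjusted p under 0.05 or called falling by DESeq2 or limma voom. With total count scaling none of these 77 rose and 23 fell, beside 12.3% rising and 41.6% falling among all tested genes. The median of the 77 moved from 0.04 to -0.23.

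None of the nuclear partners of the mitochondrial protein genes passed the test with all 10 hearts. Among 36 tested nuclear subunits of complex I, 9 of complex III, 13 of complex IV and 16 of complex V, edgeR called none in either direction, with 1, 2, 0 and 1 higher at an unadjusted p under 0.05 and none lower. In the same fit 18.9% of all tested genes rose and 21.0% fell. DESeq2 called 1, 2, 0 and 1 rising, and limma voom none. Their median log2 fold changes were 0.04, 0.04, 0.01 and 0.10, and -0.24, -0.23, -0.27 and -0.17 with total count scaling, where 9, 2, 3 and 4 fell. Of all tested genes 41.6% fell with total count scaling. Without LPS replicate 5, 3 subunits of complex I, 4 of complex III, 1 of complex IV and 4 of complex V rose. Without saline replicate 5, 1 of complex I and 1 of complex III rose, and without LPS replicate 1, 1 of complex I and 1 of complex IV fell. Of all tested genes 21.0% rose without saline replicate 5, and such a share was not taken for the fits without an LPS heart. Abundant subunits that did not pass were Ndufs1 (644 ± 61.2 to 735 ± 58.1 CPM) of complex I, Uqcrc1 (1247 ± 65.6 to 1391 ± 165 CPM) and Uqcrfs1 (716 ± 10.8 to 839 ± 125 CPM) of complex III, Cox4i1 (1414 ± 133 to 1360.0 ± 269.8 CPM) and Cox6a2 (748 ± 18.8 to 753 ± 147 CPM) of complex IV, and Atp5b (5036 ± 325 to 5361 ± 632 CPM) and Atp5a1 (3782 ± 250.1 to 4349 ± 486 CPM) of complex V. Whether the mitochondrial and nuclear subunits differed from each other was not tested.

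The authors' deposited table of Reactome terms lists mt-Nd3, mt-Nd5 and mt-Nd6 among the rising genes of 4 respiratory chain terms and no mitochondrial gene among the falling ones, with an adjusted p of 1 for each term. In the edgeR fit here mt-Nd6 was not called, while DESeq2 called it rising.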

How the data were processed

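Heart RNA of 10 mice was sequenced from libraries made with the Illumina TruSeq RNA kit, per the labels. The authors deposited 1 table with a whole-number count and an FPKM value per gene and library. Bowtie 0.12.2 and build mm9 are named in the submitters' processing notes, yet all 37 mitochondrial rows, and 53499 of 54532 rows in all, carry the coordinates of GENCODE vM21 (GRCm38). The sources used here do not give the counting program, strand setting, read length or handling of multiply matching reads. The deposited Reactome table gives the authors' p-values.

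Counts were fitted over the whole table with edgeR 4.0.16 in R 4.3.3 (filterByExpr, minimum count 10; TMM; robust quasi-likelihood test; Benjamini-Hochberg over 13864 genes, threshold 0.05), and again with the summed mitochondrial counts as library size. Summed shares were given no test. FPKM served only for levels per length. The script was tested on simulated counts. Alternatives were 4 other scalings, 2 filters, DESeq2 1.42.0, limma 3.58.1 (voom), a replicate block, mitochondrial protein genes as the total, 3 other definitions of the share and each library left out. The addition of nuclear copy reads was chosen after seeing the data. Named were all protein and rRNA genes, tRNA genes called in either fit or among the 3 with most reads, the untested members, and from each nuclear list up to 4 called genes or the 2 most abundant. One gene that this rule names is not reported here. The 37 members follow from the chromosome, and the members and lists were chosen with earlier results of these data known. Sequences came from GENCODE vM21 transcripts, which held all 37 genes.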

Additional observations from a re-analysis of the deposited data

Results flagged for a closer look

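One value stood apart within its group. mt-Nd4l was at 1018 CPM in saline replicate 4, while the 4 other saline hearts lay between 90.8 and 210 CPM. It was flagged because the gap to the next heart made up 0.872 of the range of the group. This was 1 of 76 groups of 5 values examined, and chance flags about 1 in 20. In the same library 4.87% of the reads of mt-Nd4l and its nuclear copy Gm10222 were counted on the copy, the lowest share of the 10 libraries, and the reason was not tested.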

How the results depend on the processing

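The scaling set the counts of genes called. Upper quartile scaling gave 1 mitochondrial gene that fell in place of 0, and total count scaling gave 4 that rose in place of 12 and 3 that fell. Without 1 library each, 10 to 17 rose and 0 to 1 fell. The gene that fell was mt-Rnr1 without saline replicate 1, saline replicate 3 or LPS replicate 4, and mt-Tq without LPS replicate 5. Relative to the mitochondrial total, where 2 rose and 3 fell, the fit with no filter on low counts gave 4 that rose, and the fits without 1 library gave 0 to 6 that rose and 1 to 3 that fell. None rose there without saline replicate 2 or 3, and 6 rose without LPS replicate 3 or 4. Log2 fold changes that turned sign were those of mt-Ta (-0.049), mt-Tn (-0.044), mt-Atp6 (-0.063), mt-Nd4l (-0.060), mt-Cytb (-0.063) and mt-Tp (-0.22) with total count scaling and mt-Tp (-0.11) with upper quartile scaling, none of them called. Leaving out 1 library gave -0.21 to 0.025 for mt-Rnr2, -0.50 to 0.15 for mt-Atp8, -0.23 to 1.43 for mt-Nd4l and -0.029 to 0.15 for mt-Tp. The mean shares of the library kept within 1 SD under other denominators, with the nuclear copies added and without each library. Same-numbered hearts had correlations of -0.0687 to 0.181, and only those numbered 3 correlated best with each other. These values cannot show whether same-numbered mice shared a litter, day or batch, and the labels do not say. With the replicate block 13 rose and 0 fell, and relative to the mitochondrial total 5 rose and 4 fell. In the former fit mt-Nd2, mt-Nd6 and mt-Ts2 gained the call and mt-Co1 and mt-Tl1 lost it. Among the 31 tested genes the SE was widest for mt-Nd4l (0.83), mt-Atp8 (0.68), mt-Co3 (0.58), mt-Co2 (0.42) and mt-Atp6 (0.39).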
